A study of Zea mays with 72 samples.

Results

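The genes aos1, aos2, aoc2, opr7 and opr8 encode enzymes that act after lipoxygenase in the synthesis of jasmonic acid in maize. They were chosen by name, and all 5 were found by symbol among the 32235 genes with values. All 5 passed the filter on low counts, which kept 25558 genes. Transcripts were measured by RNA sequencing in detached leaves of B73 seedlings at the V4 stage, with no change of genotype in any group. For each of leaf 4, leaf 5 and leaf 6 there were 6 biological replicates, per the labels, in each of 4 groups, which gave 72 libraries in 12 groups. Leaf 4 was the mature leaf, and leaves 5 and 6 were immature. The groups were 30 min of (Z)-3-hexenyl acetate (HAC) from a dispenser, 2 h of HAC, 2 h of about 1 µM ZmPep3 in the water at the cut end, and a control. All leaves, controls included, had been cut from the plant and kept in water for at least 2 h before treatment, and only leaf 4 had its sheath removed. A contrast between leaf 4 and another leaf therefore holds this handling step as well as leaf age, and they cannot be told apart. Each leaf had 1 control group, so the treatment contrasts of a leaf share its 6 control libraries. The labels do not give when the controls were harvested relative to the 30 min and 2 h treatments.

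Jasmonates are oxylipin hormones that plants make when they are wounded or attacked. In the plastid, a 13-lipoxygenase oxidises linolenic acid, allene oxide synthase (AOS, a cytochrome P450 of the CYP74 family) turns the hydroperoxide into an unstable allene oxide, and allene oxide cyclase (AOC) closes its ring to give 12-oxophytodienoic acid (OPDA). In the peroxisome, 12-oxophytodienoate reductase (OPR) reduces OPDA, and beta-oxidation shortens its side chain to jasmonic acid. In maize, opr7 and opr8 are the OPR copies known for this step. HAC is one of the green leaf volatiles given off on leaf damage, and ZmPep3 is a maize plant elicitor peptide, a signal perceived at the cell surface.

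Library totals lay between 26212027 and 31052273 expected counts, with a median of 29911694. The labelled tissue fitted the leaf markers. Group medians of the mesophyll genes pep1, pdk1, CAB1 and mdh6 lay between 890.4 and 21400 CPM (expected counts divided by TMM-scaled library size). The root gene TIP2-3 had group medians of at most 1.11 CPM, and the meristem genes kn1 and wus1 failed the filter on low counts. The root hair gene rth3 had group medians between 4.98 and 28.0 CPM. Deviation of a library from the mean of the other libraries of its group (root mean square over genes of log2 CPM) had a median of 0.55. It was highest in leaf 6 control libraries 6 and 5, at 0.811 and 0.796. In leaf 4 after 30 min of HAC, libraries 5 and 6 stood apart in aos1 and opr7.

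Across the study the AOS genes had the widest range of levels. The group mean of aos2 differed 100.2-fold between its highest group (leaf 6, 2 h HAC) and its lowest (leaf 4 control), and that of aos1 differed 19.5-fold. The corresponding span was 8.29-fold for opr7, 6.80-fold for aoc2 and 1.93-fold for opr8. Reads of similar genes were shared in the authors' counting: expected counts of aos1 and of aos2 were not whole in 69 of 72 libraries each, against 4 libraries for aoc2 and 1 each for opr7 and opr8. The levels of aos1 and aos2 are therefore less certain than those of the other genes. In whole leaves, fewer cells of a type and less RNA per cell cannot be told apart.

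**Figure D1:**
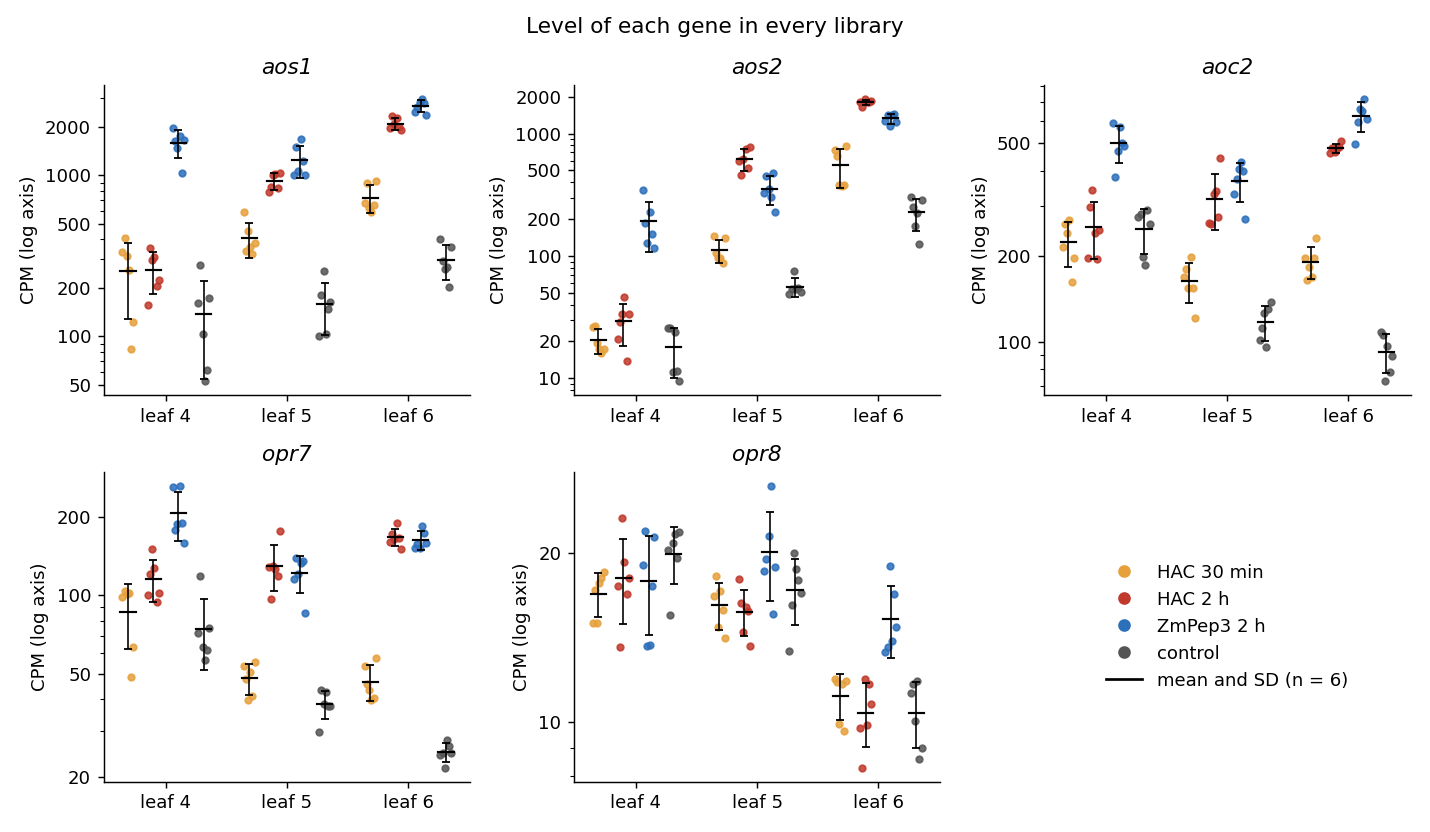
Level of each of the 5 genes in CPM on a log axis, in every library. Points are libraries, coloured by treatment and grouped by leaf, and bars give the mean and SD of 6 libraries; aos1, aos2, aoc2 and opr7 lie highest in the treated groups of leaf 6 or, for opr7, in leaf 4 with ZmPep3 (206.7 CPM), while opr8 stays between 8.29 and 26.3 CPM in all 72 libraries.

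How far each treatment raised the genes was asked first, leaf by leaf, against the control of the same leaf. A gene was called where edgeR's quasi-likelihood test gave an adjusted p under 0.05. In leaf 6, HAC raised 4 of the 5 genes by 30 min (8.49% of all genes tested were higher) and again 4 at 2 h (13.9% of all genes), and ZmPep3 raised all 5 (23.3% of all genes). In leaf 5, HAC raised 3 genes by 30 min (8.15% of all genes) and 4 at 2 h (9.59%), and ZmPep3 raised 4 (22.4%). In leaf 4, HAC raised 1 gene, aos1, at 30 min (2.53% of all genes) and 1 gene, opr7, at 2 h (0.923%), whereas ZmPep3 raised 4 (20.3%). None of the 5 genes was called lower in any of these 9 contrasts in edgeR. Of all genes tested, 1.85%, 0.763% and 21.9% were lower with 30 min of HAC, 2 h of HAC and ZmPep3 in leaf 4, 4.75%, 7.26% and 23% in leaf 5, and 3.21%, 11% and 18.8% in leaf 6. The gene that missed the threshold in 8 of the 9 contrasts was opr8.

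**Figure D2:**
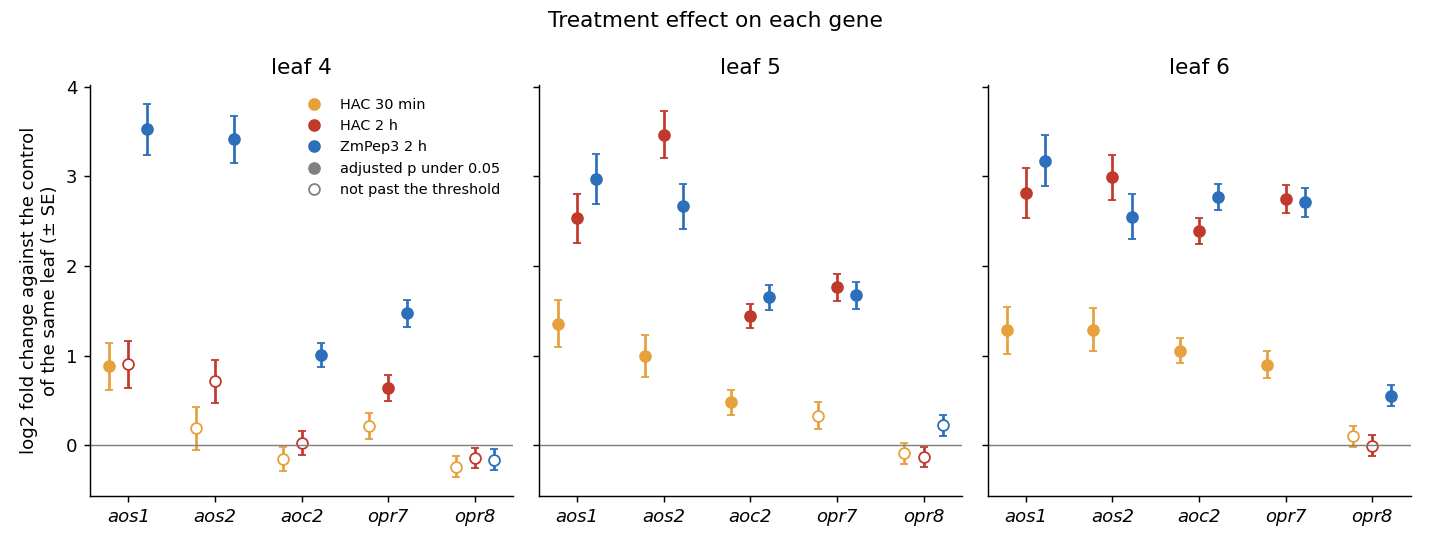
Log2 fold change of each gene against the control of the same leaf, with SE, for the 3 treatments. Filled points passed an adjusted p of 0.05 and open points did not; HAC at 2 h gave log2 fold changes of 2.39 to 2.99 for aos1, aos2, aoc2 and opr7 in leaf 6, and of 0.03 to 0.91 in leaf 4.

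The first enzyme of the branch, AOS, is encoded by aos1 and aos2 among other genes. In leaf 6, aos1 (NCBI Gene 542150) had lowest, median and highest values of 592, 661 and 917 CPM after 30 min of HAC. These were 1918, 2031 and 2329 CPM after 2 h of HAC, and 2381, 2734 and 2975 CPM after ZmPep3, against 201, 281 and 404 CPM in the control. No treated range in leaf 6 overlapped the control range. The log2 fold changes of aos1 in leaf 6 were 1.28 ± 0.26 at 30 min, 2.81 ± 0.28 at 2 h of HAC and 3.18 ± 0.28 with ZmPep3 (SE; adjusted p from edgeR 1.6e-04, 6.0e-13 and 4.1e-15). In leaf 5, aos1 had 324, 367 and 591 CPM after 30 min of HAC, 785, 923.9 and 1031 CPM after 2 h, and 998, 1142 and 1673 CPM after ZmPep3, against 101, 156 and 254 CPM in the control. These ranges were also separate from the control range, with log2 fold changes of 1.36 ± 0.26, 2.54 ± 0.27 and 2.97 ± 0.28 (adjusted p from edgeR 7.8e-05, 3.7e-11 and 4.3e-14).

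In leaf 4, aos1 had 1033, 1648 and 1958 CPM after ZmPep3, against 52.8, 132 and 275 CPM in the control. The ZmPep3 log2 fold change was 3.53 ± 0.29, an 11.5-fold difference (adjusted p from edgeR 3.4e-16). After HAC the values in leaf 4 overlapped the control range, with 83.4, 287 and 407 CPM at 30 min and 156, 260.3 and 352 CPM at 2 h. At 30 min, libraries 1 to 4 had 258 to 407 CPM of aos1, while libraries 5 and 6 had 83.4 and 123 CPM. The log2 fold change at 30 min was 0.88 ± 0.26 (adjusted p from edgeR 0.036). It was 1.26 without libraries 5 and 6 (adjusted p from edgeR 0.000547), and the call was lost when any 1 of control libraries 3, 4 and 5 or HAC libraries 1, 2 and 3 was left out, with log2 fold changes of 0.69 to 0.81 (edgeR). It did not pass in a fit of these 2 groups alone (0.87, adjusted p from edgeR 0.418). At 2 h the log2 fold change was 0.91 ± 0.26 and did not pass (adjusted p from edgeR 0.053). Leaving out control library 2, which at 275 CPM was the highest of its group, gave 1.23 at 2 h (adjusted p from edgeR 0.0063), and it passed too without control library 6 or without HAC library 1 or 5 (edgeR adjusted p of 0.0347 to 0.0475).

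The second copy, aos2 (NCBI Gene 100279433), differed most between leaves. In leaf 6 it had 375, 518 and 791 CPM after 30 min of HAC, 1636, 1812 and 1913 CPM after 2 h, and 1162, 1338 and 1454.5 CPM after ZmPep3, against 125, 236 and 301 CPM in the control. Libraries of the 30 min group fell apart into 3 at 375 to 383 CPM and 3 at 654 to 791 CPM, all above the control. The log2 fold changes were 1.29 ± 0.24, 2.99 ± 0.25 and 2.55 ± 0.25 (adjusted p from edgeR 3.0e-05, 1.8e-15 and 1.7e-13). In leaf 5 it had 87.4, 101 and 145 CPM after 30 min of HAC, 454, 609 and 776 CPM after 2 h, and 228, 338 and 475 CPM after ZmPep3, against 48.5, 53.4 and 75.7 CPM in the control. All treated libraries of leaf 5 lay above all its control libraries, and the 2 h HAC log2 fold change of 3.47 ± 0.26 was the largest that HAC gave for any of the 5 genes (adjusted p from edgeR 5.0e-17). Changes at 30 min and with ZmPep3 in leaf 5 were 1.00 ± 0.24 and 2.67 ± 0.25 (adjusted p from edgeR 0.0017 and 4.9e-14).

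Mature leaf 4 held little aos2 except after the peptide. It had 116, 169 and 343 CPM after ZmPep3, against 9.54, 17.7 and 26.01 CPM in the control, a log2 fold change of 3.42 ± 0.26 (adjusted p from edgeR 3.1e-17). After HAC, aos2 in leaf 4 had 16.2, 18.4 and 26.8 CPM at 30 min and 13.9, 31.04 and 46.3 CPM at 2 h. Both ranges overlapped the control range. Neither change passed, with log2 fold changes of 0.19 ± 0.24 and 0.72 ± 0.24 (adjusted p from edgeR 0.76 and 0.11). Without HAC library 5, the lowest of the 2 h group, the 2 h change was 0.86 and passed (adjusted p from edgeR 0.0459).

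The cyclase gene aoc2 (NCBI Gene 100273356) makes the enzyme that sets the ring of OPDA. In leaf 6 it had 165, 190.2 and 232 CPM after 30 min of HAC, 461, 483 and 510.0 CPM after 2 h, and 499, 632 and 717 CPM after ZmPep3, against 72.7, 92.7 and 108 CPM in the control. The 6 libraries of the 2 h group lay close together (481 ± 17.4 CPM, SD), and each treated range was above the control range. The log2 fold changes were 1.06 ± 0.14, 2.39 ± 0.14 and 2.77 ± 0.14 (adjusted p from edgeR 4.7e-09, 1.6e-22 and 2.3e-25). In leaf 5, aoc2 had 122, 162 and 199 CPM after 30 min of HAC, 259.9, 304 and 443 CPM after 2 h, and 272, 387 and 429.9 CPM after ZmPep3, against 95.7, 119 and 138 CPM in the control. Only the 30 min range overlapped the control range, and the changes were 0.48 ± 0.14, 1.44 ± 0.14 and 1.65 ± 0.14 (adjusted p from edgeR 0.0097, 4.2e-13 and 3.5e-16).

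In leaf 4, aoc2 had 379, 496 and 591 CPM after ZmPep3, against 187, 267 and 291 CPM in the control, all libraries above the control range. This was a 2.01-fold difference, with a log2 fold change of 1.01 ± 0.14 (adjusted p from edgeR 6.7e-09). After HAC it had 163, 228 and 269 CPM at 30 min and 195, 245 and 342 CPM at 2 h, within or around the control range. The log2 fold changes with HAC in leaf 4 were -0.15 ± 0.14 and 0.03 ± 0.14 (adjusted p from edgeR 0.64 and 0.96).

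The reductase gene opr7 (NCBI Gene 732830) carried most of the OPR7 and OPR8 transcripts. In leaf 6 it had 39.6, 44.3 and 57.5 CPM after 30 min of HAC, 151, 165 and 189.5 CPM after 2 h, and 152, 159 and 185 CPM after ZmPep3, against 21.7, 24.8 and 27.7 CPM in the control. Treated and control libraries did not overlap at either time or with either agent. The log2 fold changes were 0.90 ± 0.15, 2.75 ± 0.16 and 2.71 ± 0.16 (adjusted p from edgeR 3.1e-06, 3.7e-23 and 3.4e-23), so that 2 h of HAC gave 6.70-fold and ZmPep3 6.55-fold the control level. In leaf 5, opr7 had 39.4, 49.2 and 55.6 CPM after 30 min of HAC, 97.1, 128 and 176 CPM after 2 h, and 85.8, 127 and 139 CPM after ZmPep3, against 29.8, 37.9 and 43.4 CPM in the control. At 30 min the range overlapped the control range and the change of 0.33 ± 0.15 did not pass (adjusted p from edgeR 0.14). At 2 h the changes were 1.76 ± 0.15 with HAC and 1.67 ± 0.15 with ZmPep3 (adjusted p from edgeR 8.2e-15 and 7.4e-15).

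In leaf 4, opr7 had 159.6, 189 and 264 CPM after ZmPep3, against 56.5, 67.3 and 119 CPM in the control, a log2 fold change of 1.47 ± 0.15 (adjusted p from edgeR 8.8e-13). This group had the highest mean of opr7 in the study, and control library 2, at 118.5 CPM, stood above the other 5 control libraries, which had 56.5 to 75.1 CPM. After 30 min of HAC opr7 had 48.7, 100.2 and 104 CPM. Libraries 1 to 4 of that group had 98.8 to 104 CPM and libraries 5 and 6 had 48.7 and 63.6 CPM. The 30 min change was 0.21 ± 0.15 (adjusted p from edgeR 0.50), and 0.45 without libraries 5 and 6 (adjusted p from edgeR 0.0516). At 2 h of HAC opr7 had 94.6, 111 and 151 CPM, and its change of 0.64 ± 0.15 passed (adjusted p from edgeR 0.013). This was the one call among the 5 genes for 2 h of HAC in leaf 4, and in a fit of those 2 groups alone it did not pass (adjusted p from edgeR 0.114).

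The other reductase copy, opr8 (NCBI Gene 732734), moved least. In leaf 6 it had 9.63, 11.7 and 11.9 CPM after 30 min of HAC and 8.29, 10.3 and 11.9 CPM after 2 h, against 8.59, 10.6 and 11.8 CPM in the control. ZmPep3 in leaf 6 was the exception, with 13.3, 14.3 and 18.9 CPM, all above the control range. That change was 0.55 ± 0.12, or 1.47-fold (adjusted p from edgeR 9.0e-05), while HAC gave 0.10 ± 0.12 and 0.00 ± 0.12 (adjusted p from edgeR 0.70 and 0.99). In leaf 5, opr8 had 14.1, 16.3 and 18.1 CPM after 30 min of HAC, 13.7, 15.9 and 18.0 CPM after 2 h, and 15.5, 19.2 and 26.3 CPM after ZmPep3, against 13.4, 17.4 and 19.96 CPM in the control. In leaf 4 it had 15.0, 17.4 and 18.5 CPM, 13.6, 17.7 and 23.0 CPM, and 13.7, 18.2 and 21.8 CPM in the same treatments, against 15.5, 20.5 and 21.8 CPM in the control. All 6 of these ranges overlapped their control range, and the log2 fold changes lay between -0.24 ± 0.12 (leaf 4, 30 min HAC) and 0.22 ± 0.12 (leaf 5, ZmPep3), with adjusted p from edgeR between 0.11 and 0.69. The leaf 5 ZmPep3 change was 0.28 and passed without ZmPep3 library 5 (adjusted p from edgeR 0.0441).

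HAC at 2 h was then compared with HAC at 30 min within each leaf. No control was labelled for either time, so length of HAC exposure and time since cutting cannot be told apart here. In leaf 6, 4 genes were higher at 2 h than at 30 min (10.1% of all genes tested were), with log2 differences of 1.53 ± 0.26 for aos1, 1.70 ± 0.24 for aos2, 1.34 ± 0.14 for aoc2 and 1.84 ± 0.15 for opr7. In leaf 5 the same 4 genes were higher at 2 h (7.03% of all genes), by 1.18 ± 0.26, 2.47 ± 0.25, 0.96 ± 0.14 and 1.43 ± 0.15. The largest adjusted p of these 8 differences was 6.0e-04 (edgeR), and none of the 8 pairs of ranges overlapped. In leaf 4 none of the 5 genes was called between 2 h and 30 min in edgeR (1.49% of all genes were higher and 2.11% lower). There the differences were 0.03 ± 0.26 for aos1, 0.52 ± 0.24 for aos2, 0.18 ± 0.14 for aoc2, 0.42 ± 0.15 for opr7 and 0.10 ± 0.12 for opr8. The opr7 difference had the smallest adjusted p of the 5 (0.095, edgeR).

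ZmPep3 and HAC were compared at the same time of 2 h, although their doses cannot be matched. In leaf 4, ZmPep3 libraries had more of 4 genes than HAC libraries (15.2% of all genes were higher), by log2 2.62 ± 0.27 for aos1, 2.70 ± 0.25 for aos2, 0.98 ± 0.14 for aoc2 and 0.83 ± 0.15 for opr7, with no overlap of ranges (largest adjusted p from edgeR 6.5e-06). In leaf 5, opr8 was higher with ZmPep3 (14.6% of all genes were), by 0.35 ± 0.12 (adjusted p from edgeR 0.018), and by 0.26, which did not pass, without ZmPep3 library 4 (adjusted p from edgeR 0.0975). There aos2 was lower with ZmPep3 (11.6% of all genes were), with a log2 difference of -0.80 ± 0.24 (adjusted p from edgeR 0.0077), which was -0.65 and did not pass without ZmPep3 libraries 1 and 6 (adjusted p from edgeR 0.0601). In leaf 6, ZmPep3 libraries had more aoc2 and opr8 (12.8% of all genes were higher), by 0.37 ± 0.14 and 0.56 ± 0.12 (adjusted p from edgeR 0.041 and 2.1e-04). The aoc2 difference no longer passed when any 1 of HAC libraries 1 to 5 or ZmPep3 libraries 3 to 6 was left out (adjusted p from edgeR 0.051 to 0.0973), nor with DESeq2 (0.33, adjusted p 0.065). The 6 ZmPep3 libraries of leaf 6 all lay above the 6 HAC libraries for aos1 and all below them for aos2, yet the differences of 0.36 ± 0.26 and -0.44 ± 0.24 did not pass (adjusted p from edgeR 0.38 and 0.21; 19.3% of all genes were called in either direction). In an edgeR fit of these 2 groups alone, both passed (adjusted p 0.0029 and 1.8e-04), as did the aos1 difference of 0.44 ± 0.26 in leaf 5 (adjusted p 0.030, against 0.22 in the fit of all groups). For opr7 the 2 agents differed by -0.09 ± 0.15 in leaf 5 and -0.03 ± 0.15 in leaf 6 (adjusted p from edgeR 0.71 and 0.92).

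The difference in a treatment's effect between leaves was tested directly, as an interaction in the same edgeR fit. For 2 h of HAC, 4 genes had larger effects in leaf 6 than in leaf 4 (7.27% of all genes did). The differences in log2 fold change were 1.91 ± 0.37 for aos1, 2.28 ± 0.34 for aos2, 2.37 ± 0.19 for aoc2 and 2.11 ± 0.21 for opr7 (largest adjusted p from edgeR 1.3e-04). The same 4 genes had larger effects in leaf 5 than in leaf 4 (2.21% of all genes did), by 1.63 ± 0.37, 2.75 ± 0.34, 1.42 ± 0.19 and 1.12 ± 0.21 (largest adjusted p from edgeR 0.0039). For aos1 the leaf 5 minus leaf 4 value did not pass in a fit of the 4 groups alone (1.65, adjusted p from edgeR 0.0528). Between the immature leaves, the effect was larger in leaf 6 for aoc2 and opr7 (1.10% of all genes), by 0.95 ± 0.19 and 0.98 ± 0.21 (adjusted p from edgeR 0.0024 and 0.0046). For aos1 and aos2 the leaf 6 minus leaf 5 differences of 0.28 ± 0.37 and -0.48 ± 0.33 did not pass (adjusted p from edgeR 0.80 and 0.55).

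At 30 min of HAC fewer differences between leaves passed. Leaf 6 exceeded leaf 4 for 3 genes (4.23% of all genes), aos2 by 1.10 ± 0.34, aoc2 by 1.21 ± 0.19 and opr7 by 0.69 ± 0.21 (adjusted p from edgeR 0.040, 4.7e-06 and 0.038). The aos2 call was lost on leaving out any 1 of leaf 4 control libraries 1, 2 and 4, leaf 6 control libraries 3, 4 and 5, leaf 4 HAC libraries 3 to 6 and leaf 6 HAC libraries 1, 2 and 6 (adjusted p from edgeR 0.0508 to 0.0916). The opr7 call was lost without leaf 4 control library 2, leaf 6 control library 1 or 3, leaf 4 HAC library 5 or 6, or leaf 6 HAC library 1 or 6 (adjusted p from edgeR 0.051 to 0.143), and the difference was 0.44 without both leaf 4 HAC libraries 5 and 6 (adjusted p from edgeR 0.239). In a fit of the 4 groups alone, neither aos2 nor opr7 passed (adjusted p from edgeR 0.147 and 0.141), and neither did without leaf 6 control libraries 5 and 6 (adjusted p from edgeR 0.0926 and 0.0671). Neither the leaf 5 minus leaf 4 contrast (3.16% of all genes called) nor the leaf 6 minus leaf 5 contrast (0.36% called) called any of the 5 genes at 30 min in edgeR. The nearest was aoc2 between leaf 5 and leaf 4, at 0.63 ± 0.19 (adjusted p from edgeR 0.051). It passed with DESeq2 (adjusted p 0.021) and without any 1 of leaf 4 control libraries 3 and 4, leaf 5 control libraries 5 and 6, leaf 4 HAC libraries 2, 3 and 4 and leaf 5 HAC library 6 (edgeR adjusted p of 0.0244 to 0.0497).

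With ZmPep3 the calls between leaves fell on aoc2, opr7 and opr8. The aoc2 effect was larger in leaf 6 than in leaf 4 by 1.76 ± 0.19 and larger in leaf 5 than in leaf 4 by 0.65 ± 0.19 (adjusted p from edgeR 2.1e-10 and 0.025). The leaf 5 minus leaf 4 value was 0.58 and did not pass without leaf 4 ZmPep3 library 2 (adjusted p from edgeR 0.052). For opr7 and opr8 the leaf 6 effect exceeded the leaf 4 effect by 1.24 ± 0.21 and 0.71 ± 0.17 (adjusted p from edgeR 8.7e-06 and 0.0010). These made 3 genes with a larger ZmPep3 effect in leaf 6 than in leaf 4 (12.2% of all genes) and 1 with a larger effect in leaf 5 than in leaf 4 (5.33% of all genes). Leaf 6 also exceeded leaf 5 for 2 genes (1.23% of all genes), aoc2 by 1.11 ± 0.19 and opr7 by 1.04 ± 0.21 (adjusted p from edgeR 1.7e-04 and 0.0016). Of all genes called in that last contrast, 59.4% were higher, against 37.8% with DESeq2 size factors in place of TMM. The AOS genes showed no called difference between leaves with ZmPep3: the leaf 6 minus leaf 4 values were -0.35 ± 0.37 for aos1 and -0.87 ± 0.34 for aos2 (adjusted p from edgeR 0.57 and 0.061). The aos2 value passed as lower in leaf 6 with DESeq2 size factors, with DESeq2, and without leaf 4 HAC libraries 5 and 6 (-0.93 to -0.94; adjusted p 0.0275 to 0.0435). It also passed in edgeR without any 1 of leaf 4 control libraries 1, 2 and 4, leaf 6 control libraries 3 and 5 and leaf 4 ZmPep3 libraries 3, 5 and 6 (adjusted p 0.0284 to 0.0493).

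Between untreated leaf 6 and leaf 4, the AOS genes differed in one direction and the cyclase and reductase genes in the other. Leaf 4, leaf 5 and leaf 6 controls averaged 18.0 ± 7.97, 56.0 ± 9.90 and 227 ± 66.7 CPM of aos2 (SD, n = 6 each), and 138 ± 83.5, 158 ± 56.7 and 297 ± 72.6 CPM of aos1. For aoc2 they averaged 249 ± 44.9, 117 ± 16.9 and 91.6 ± 14.4 CPM, and for opr7 74.4 ± 22.6, 38.2 ± 4.84 and 24.9 ± 2.00 CPM. The opr8 means were 19.9 ± 2.31, 17.2 ± 2.29 and 10.4 ± 1.39 CPM. Leaf 6 controls had more aos1 and aos2 than leaf 4 controls (35.7% of all genes were higher) and less aoc2, opr7 and opr8 (34.9% were lower). Against shares of that size, 2 of 5 genes higher and 3 lower are no result about the 5 genes as a set. The log2 differences of aos1, aos2, aoc2, opr7 and opr8 were 1.11 ± 0.26, 3.66 ± 0.26, -1.44 ± 0.14, -1.58 ± 0.15 and -0.94 ± 0.12 (largest adjusted p from edgeR 1.6e-04). The aos1 ranges overlapped, and the other 4 pairs of ranges did not.

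Leaf 5 controls had more aos2 than leaf 4 controls (29.6% of all genes were higher), by 1.64 ± 0.24, and less aoc2 and opr7 (26.3% were lower), by -1.09 ± 0.14 and -0.96 ± 0.15 (largest adjusted p from edgeR 9.8e-08). Here too, 1 of 5 genes higher and 2 lower are no result about the set. For aos1 and opr8 the differences of 0.20 ± 0.26 and -0.21 ± 0.12 did not pass (adjusted p from edgeR 0.52 and 0.11), although opr8 passed at -0.28 without leaf 4 control library 2 (adjusted p from edgeR 0.0427). Against leaf 5 controls, leaf 6 controls were higher in 2 genes (22.2% of all genes), aos1 by 0.91 ± 0.26 and aos2 by 2.02 ± 0.25, and lower in 3 (22.7% of all genes), with differences of -0.35 ± 0.14 for aoc2, -0.61 ± 0.15 for opr7 and -0.72 ± 0.12 for opr8 (largest adjusted p from edgeR 0.028). The aoc2 call was lost without any 1 of leaf 5 control libraries 3, 5 and 6 and leaf 6 control libraries 3 and 5, with differences of -0.30 to -0.33 (adjusted p from edgeR 0.0515 to 0.083), and with DESeq2 (-0.29, adjusted p 0.063). Transcript levels of some tissue marker genes differed with leaf number as well. The summed level of the 2 bundle sheath markers me3 and rbcs1 lay between 1103 and 5407 CPM in leaf 4 libraries, between 7414 and 12510 CPM in those of leaf 5 and between 10120 and 15430 CPM in those of leaf 6. The sum of the ligule genes lg1 and lg2 spanned 0.983 to 4.11, 1.70 to 6.28 and 7.96 to 15.0 CPM in the same leaves. The sum of the 4 mesophyll markers spanned 18480 to 30540, 26310 to 45730 and 26380 to 45130 CPM, with overlap between all 3 leaves. These ranges include the treated libraries of each leaf. Whether leaf makeup differed, and its part in the differences between leaves, was not tested.

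The pairs of copies were then compared per length of transcript, with the deposited FPKM values, which are scaled to gene length and depth, as the share of 1 copy in each library. The share of aos1 in aos1 plus aos2 was 84.3 ± 9.96% in leaf 4 controls, 70.1 ± 5.31% in leaf 5 controls and 53.8 ± 3.06% in leaf 6 controls (SD, n = 6 each). Expected counts of both genes were not whole in 69 of 72 libraries, so this share rests in part on how the authors' counting divided shared reads. The differences were -30.5 percentage points for leaf 6 minus leaf 4, -16.3 for leaf 6 minus leaf 5 and -14.2 for leaf 5 minus leaf 4. These passed an exact two-sided permutation test (adjusted p 0.00577, 0.00577 and 0.0277, over the 24 share tests made). The raw p of 0.00216 behind 0.00577 is the smallest that 6 against 6 libraries can give. In leaf 5, the aos1 share was 56.7 ± 3.43% after 2 h of HAC, against 70.1 ± 5.31% in the control, a difference of -13.4 percentage points (adjusted p 0.00577, exact permutation test). In leaf 6, it was 63.9 ± 2.23% with ZmPep3, against 53.8 ± 3.06% in the control, a rise of 10.1 points (adjusted p 0.00577, exact permutation test). The other 7 treatments moved it by -3.50 to 5.71 points and did not pass.

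The mean share of opr7 in opr7 plus opr8 was above its control in all 9 treatment groups, and 8 of the 9 differences passed. In leaf 6 it was 79.9 ± 2.05% after 30 min of HAC, 93.9 ± 0.957% after 2 h and 91.1 ± 1.44% after ZmPep3, against 69.8 ± 3.12% in the control (adjusted p 0.00577 each, exact permutation test). In leaf 5 it was 73.9 ± 3.03%, 88.5 ± 2.47% and 85.2 ± 2.87% in the same treatments, against 68.1 ± 2.38% in the control (adjusted p 0.0173, 0.00577 and 0.00577, exact permutation test). In leaf 4 it was 86.0 ± 1.97% after 2 h of HAC and 91.5 ± 2.72% after ZmPep3, against 77.2 ± 5.67% in the control (adjusted p 0.0223 and 0.00945, exact permutation test). After 30 min of HAC in leaf 4 the share was 82.0 ± 5.99%, and this difference did not pass (adjusted p 0.252, exact permutation test). Among controls, the opr7 share differed by -9.16 points for leaf 5 minus leaf 4 and by -7.43 points for leaf 6 minus leaf 4 (adjusted p 0.00945 and 0.0223, exact permutation test), and leaf 6 and leaf 5 differed by 1.73 points (adjusted p 0.344).

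**Figure D3:**
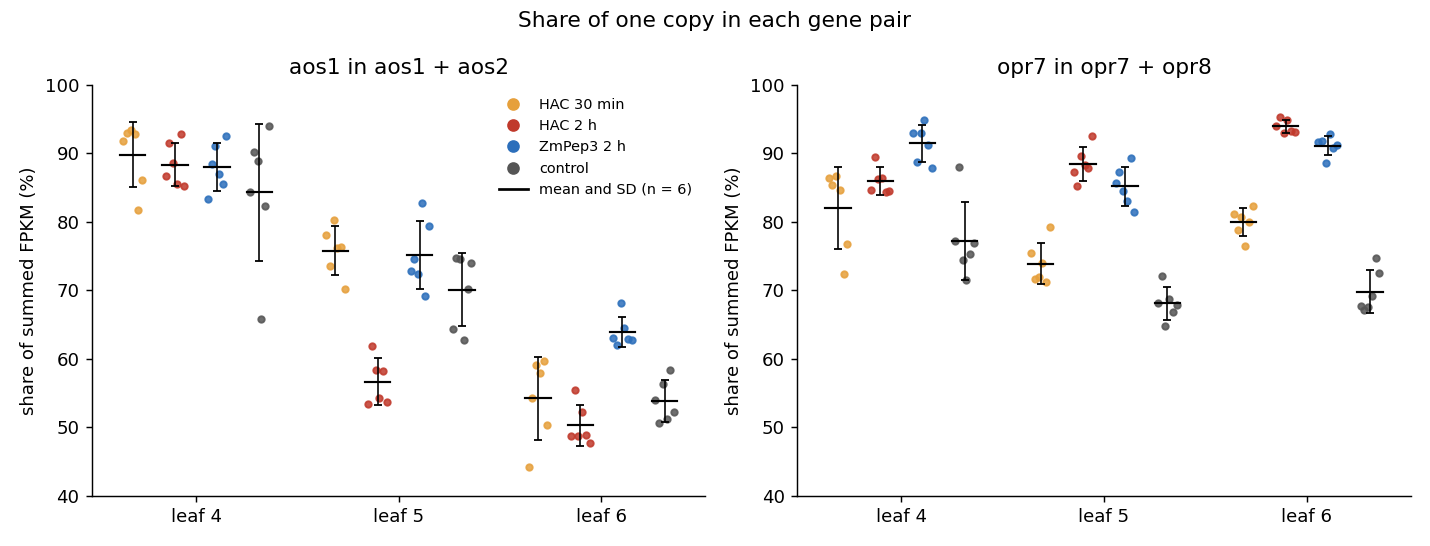
Share of aos1 in the summed FPKM of aos1 and aos2, and of opr7 in that of opr7 and opr8, in percent (the axis starts at 40%). Points are libraries and bars the mean and SD of 6; the aos1 share steps down through leaf 4, leaf 5 and leaf 6 controls (84.3%, 70.1%, 53.8%), and the opr7 share is above its control after 2 h of either agent in all 3 leaves.

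Sums of FPKM over each enzyme step describe the same pattern at the level of the branch, with no test. Over aos1 to aos4, the synthase sum was 1964 ± 94.1 FPKM in leaf 6 after 2 h of HAC and 2049.7 ± 135 after ZmPep3, against 303 ± 87.3 in its control. In leaf 4 it was 187 ± 51.1 and 1036 ± 202 FPKM, against 107 ± 58.6 in the control. The cyclase sum of aoc1 and aoc2 was 681 ± 35.5 and 891 ± 97.8 FPKM in leaf 6, against 193 ± 32.0 in the control, and 492 ± 94.2 and 966 ± 100.001 in leaf 4, against 512 ± 86.8 in the control. Summed opr7 and opr8 reached 104 ± 8.65 and 107 ± 7.74 FPKM in leaf 6, against 23.7 ± 1.47 in the control, and 104 ± 17.0 and 158 ± 25.3 in leaf 4, against 78.0 ± 18.1. These FPKM values carry no TMM scaling between leaves: in CPM, opr7 alone averaged 116 ± 21.3 in leaf 4 and 167 ± 12.9 in leaf 6 after 2 h of HAC. The ranges all but met, at 150.7 CPM in the highest leaf 4 library and 151.2 CPM in the lowest leaf 6 library. This difference was not tested. The ratio of synthase to cyclase sums was 0.202 ± 0.0806, 0.522 ± 0.105 and 1.55 ± 0.293 in leaf 4, leaf 5 and leaf 6 controls. After 2 h of HAC it was 0.378 ± 0.0711, 1.68 ± 0.121 and 2.89 ± 0.183, and after ZmPep3 1.07 ± 0.164, 1.31 ± 0.154 and 2.32 ± 0.194, in the same 3 leaves.

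**Figure D4:**
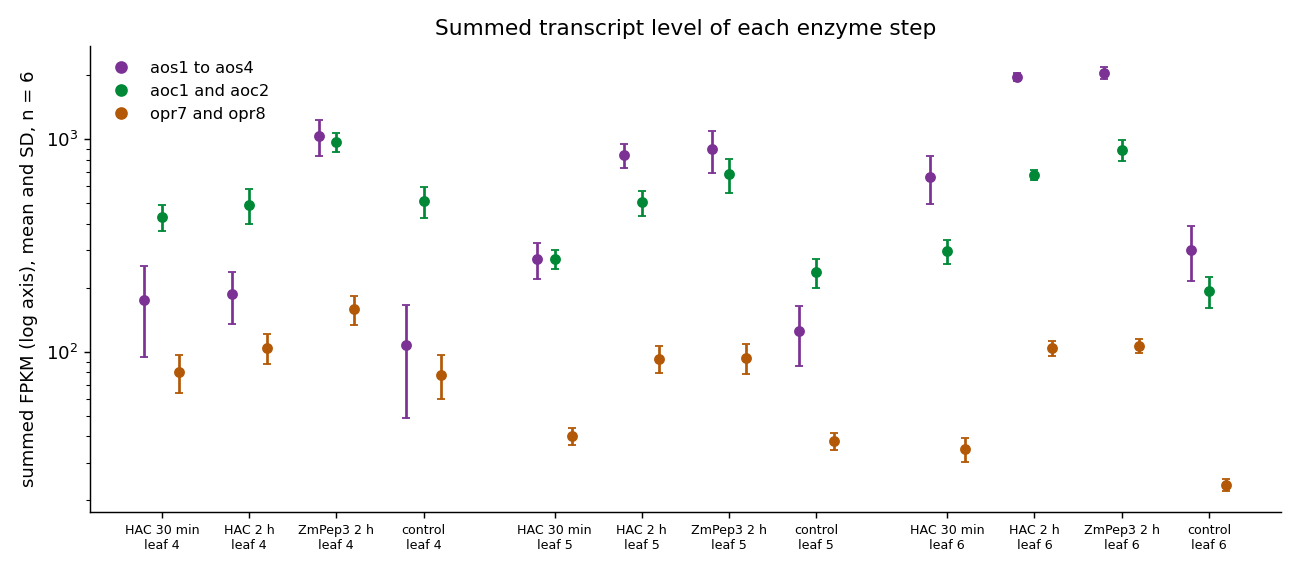
Summed FPKM (log axis) of the AOS, AOC and OPR genes by group, as mean and SD of 6 libraries. The synthase sum lies below the cyclase sum in the leaf 4 control (107 and 512 FPKM) and above it in the leaf 6 control (303 and 193 FPKM).

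In the order of group means, most neighbours overlapped. For aos1 the groups ran without a gap except below leaf 6 with 30 min of HAC (724 ± 141 CPM) and below leaf 6 with ZmPep3 (2690.3 ± 232 CPM). For aos2 the 3 lowest groups, leaf 4 control and leaf 4 with HAC at 30 min and 2 h, overlapped each other in turn, and the leaf 5 control, leaf 5 with 30 min of HAC, leaf 6 with ZmPep3 and leaf 6 with 2 h of HAC were each separate from the group below. Steps without overlap stood below leaf 6 with 2 h of HAC for aoc2, below the leaf 5 control and the leaf 4 control for opr7, and below leaf 6 with ZmPep3 for opr8. Over the 12 group means of log2 CPM, aoc2 and opr7 followed each other most closely (Pearson r = 0.959), followed by aos1 and aos2 (r = 0.881), while aos2 and opr8 had r = -0.586. These correlations share libraries and are given as descriptions.

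Among 1924 named genes with at least 5 CPM in some group, the genes whose 12 group means were most like those of each member were found by Pearson r. For aos1 they were ANT-G1 (r = 0.975), lox3 (0.968) and AAMT1 (0.96). For aos2 they were lox2 (0.993), lox1 (0.976) and Ann9 (0.974), of which lox1 and lox2 are lipoxygenases. For aoc2 they were TCP7 (0.961), the other cyclase gene aoc1 (0.953) and Atg4a (0.933). GST25, SAMS1 and atp1 were most like opr7 (0.97, 0.967 and 0.963), and KOB1, PER42 and SnRK2.7 most like opr8 (0.958, 0.948 and 0.945). The opr8 likeness holds by Pearson r alone, since by Spearman's rho (0.867, 0.839 and 0.825) these genes ranked 20th, 49th and 80th, while the 12 genes named for the other members ranked 8th or higher.

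The lipoxygenases, which act before AOS, were counted from lists of symbols. Of 5 genes listed as 13-lipoxygenases, the kind that feeds jasmonate synthesis, HAC raised 1 at 30 min and 1 at 2 h in leaf 4, and 4 at each time in leaf 5 and in leaf 6. Of all genes tested, HAC raised 2.53%, 8.15% and 8.49% at 30 min and 0.923%, 9.59% and 13.9% at 2 h in leaf 4, leaf 5 and leaf 6. ZmPep3 raised 5 of the 13-lipoxygenases in leaf 4 and 4 each in leaf 5 and leaf 6, against 20.3%, 22.4% and 23.3% of all genes. None was lower. Their median log2 fold change lay between 0.31 and 1.64, while that of all genes tested lay between -0.06 and 0.00. For ts1, a plastid 13-lipoxygenase known from tassel development, 30 min of HAC gave 2.77 ± 0.19 in leaf 6, 2.70 ± 0.18 in leaf 5 and 0.88 ± 0.17 in leaf 4 (adjusted p from edgeR 5.1e-20 in leaf 6). The largest lox9 effect was 2.30 ± 0.17, with ZmPep3 in leaf 5, and that of lox10, a 13-lipoxygenase known for green leaf volatile synthesis, was 1.70 ± 0.18, after 2 h of HAC in leaf 6. Of 7 genes listed as 9-lipoxygenases, 2 h of HAC raised 1 in leaf 4 (lox5), 6 in leaf 5 and 6 in leaf 6 (0.923%, 9.59% and 13.9% of all genes), and ZmPep3 raised 5, 5 and 6 (20.3%, 22.4% and 23.3%). After 30 min of HAC 1 (lox4), 5 and 5 were higher (2.53%, 8.15% and 8.49% of all genes). The effects were as large as 5.22 ± 0.38 for lox5 (leaf 5, 2 h HAC), 4.57 ± 0.28 for lox4 (leaf 6, ZmPep3) and 3.26 ± 0.29 for lox2 (leaf 4, ZmPep3). None of the 7 listed genes was called lower. The list was made by symbol and includes lox6, and whether each gene is a 9-lipoxygenase was not checked.

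The other AOS, AOC and hydroperoxide lyase genes numbered 4. Of these, 30 min of HAC raised 0, 1 and 3 in leaf 4, leaf 5 and leaf 6 (2.53%, 8.15% and 8.49% of all genes). At 2 h HAC raised 1, 4 and 4 (0.923%, 9.59% and 13.9% of all genes), and ZmPep3 raised 4 in each leaf (20.3%, 22.4% and 23.3%). The aos3 effect of ZmPep3 in leaf 6 was 3.41 ± 0.19, and that of aoc1 was 1.87 ± 0.13 (adjusted p from edgeR 1.4e-23 and 9.4e-20). For hpl1, a hydroperoxide lyase gene of the branch that gives green leaf volatiles, 2 h of HAC in leaf 6 gave 1.53 ± 0.17. Besides opr7 and opr8 there were 6 other OPR genes. HAC raised none of them in any leaf at either time, in edgeR, where those shares of all genes, at most 13.9%, make 0 of 6 no result about these genes. ZmPep3 raised 2, 4 and 4 in leaf 4, leaf 5 and leaf 6, and 2 of 6 in leaf 4 is near the 20.3% of all genes. With ZmPep3 in leaf 6, opr4 had 3.90 ± 0.60 and opr1 3.07 ± 0.38. Group means of opr4 lay between 0.346 and 11.1 CPM, so that its lowest groups held few reads. The gene opr6 was lower with ZmPep3 in all 3 leaves, at -0.70 ± 0.16 in leaf 4, -0.92 ± 0.16 in leaf 5 and -1.26 ± 0.16 in leaf 6 (largest adjusted p from edgeR 2.5e-04; 21.9%, 23% and 18.8% of all genes were lower). After 2 h of HAC, opr6 was lower in leaf 5 (7.26% of all genes were) and, with opr3, in leaf 6 (11% were), where the changes were -1.04 ± 0.16 and -2.52 ± 0.82. The opr3 value rests on few reads, since its group means lay between 0.0453 and 2.23 CPM, and opr3 was named after its values were seen.

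Genes of jasmonate signalling were counted in the same way. JAZ repressors belong to the TIFY family and are known to be induced by the hormone whose responses they repress. The list held 21 genes with a TIFY or JAZ name, and whether each is a JAZ repressor was not checked. Of these 21 genes, 15, 16 and 16 were higher after 30 min of HAC in leaf 4, leaf 5 and leaf 6 (2.53%, 8.15% and 8.49% of all genes). At 2 h of HAC 3, 16 and 17 were higher (0.923%, 9.59% and 13.9% of all genes), and with ZmPep3 17 in each leaf (20.3%, 22.4% and 23.3%). The genes with the smallest adjusted p were TIFY20 at 7.04 ± 0.31 and TIFY9 at 5.95 ± 0.33, both after 30 min of HAC in leaf 5, and TIFY6 at 2.49 ± 0.14 after 2 h in leaf 6. TIFY28, at 6.06 ± 0.33 in the first of these contrasts, had the same adjusted p as TIFY9 (edgeR, 3.0e-23), so the order is not one of size. Group means of TIFY20 lay between 0.441 and 58.1 CPM, so that its lowest groups held few reads. ZmPep3 lowered TIFY12 and TIFY23 in leaf 4 and these and TIFY18 and TIFY21 in leaf 5, 4 genes named after their values were seen. These 2 and 4 of 21 lie below the 21.9% and 23% of all genes lower in those contrasts. MYC2a, a bHLH regulator of jasmonate responses, had 1.51 ± 0.12, 2.63 ± 0.12 and 2.29 ± 0.12 after 30 min of HAC in leaf 4, leaf 5 and leaf 6. After 2 h of HAC it had 0.19 ± 0.12, which did not pass, 1.22 ± 0.12 and 1.72 ± 0.12. In leaf 4 at 30 min of HAC, 15 genes of the TIFY list and MYC2a were thus called higher while aos1 was the one call among the 5 synthesis genes.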

How the data were processed

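Total RNA of 72 leaf libraries was sequenced by the DNBSEQ protocol, per the labels' protocols. The submitters' processing notes name Bowtie2, RSEM and the assembly B73 RefGen_v4, without versions. The authors deposited expected counts per gene, not scaled between libraries, and FPKM values, which the authors scaled for gene length and depth. Of the count table's 43547 rows, 11312 were blank in every sample. Of the values above 0, 11.09% were not whole (tolerance 1e-06). Names came from a RefSeq gene table of Zm-B73-REFERENCE-NAM-5.0, matched by NCBI Gene number for 30403 of 32235 genes. Coordinates were not used, since the assemblies differ.

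Expected counts were rounded, filtered with filterByExpr, scaled by TMM and fitted with 1 coefficient per group in edgeR 4.0.16 (quasi-likelihood, robust, common dispersion 0.0631, R 4.3.3, limma 3.58.1). In all, 27 contrasts were tested, with Benjamini-Hochberg adjustment over 25558 genes and a threshold of 0.05. SE is the log2 fold change over the root of the F statistic. Medians of all genes were taken over the same genes. FPKM served for shares and step sums, which compare genes. Shares were tested by exact two-sided permutation in Python 3.11.15, adjusted over 24 tests. The script was tested on simulated data.

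The members and gene lists were chosen with earlier results of these data known. Named genes were the 5 members, the 3 named genes most like each by Pearson r over group means (prior count 2), and up to 3 genes per list by smallest adjusted p. Lists for beta-oxidation, conjugation and perception matched no symbol, the reference gave no descriptions, and promoter motifs were not analysed here. Same-numbered libraries were not paired: of 396 pairs of same-numbered libraries, 23 had correlated deviations over 0.1 (median 0.009). Alternatives were DESeq2 size factors, DESeq2 1.42.0, other filters, the contrast's own groups, a replicate block, each library left out and, chosen after seeing the data, pairs of libraries that stood apart. Runs with each library left out in turn refitted the 5 members only. They kept the scaling and the estimates of spread from the fit of all libraries. For adjustment, each new p replaced that gene's p among those of all genes in the main fit.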

Additional observations from a re-analysis of the deposited data

Results flagged for a closer look

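In 60 sets of 6 libraries (5 genes in 12 groups), 3 values stood farther from their group than Dixon's 95% limit for 6 samples. Chance flags about 1 set in 20. They were 75.7 CPM of aos2 in leaf 5 control library 3, the highest of its group, 118.5 CPM of opr7 in leaf 4 control library 2, the highest of its group, and 15.5 CPM of opr8 in the same library, the lowest of its group.

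Of 45 differences between leaves in a treatment's effect, 19 passed the interaction test. With 2 h of HAC they were 1.63 (aos1), 2.75 (aos2), 1.42 (aoc2) and 1.12 (opr7) for leaf 5 minus leaf 4, 1.91 (aos1), 2.28 (aos2), 2.37 (aoc2) and 2.11 (opr7) for leaf 6 minus leaf 4, and 0.95 (aoc2) and 0.98 (opr7) for leaf 6 minus leaf 5, as differences of log2 fold changes. With 30 min of HAC they were 1.10 (aos2), 1.21 (aoc2) and 0.69 (opr7) for leaf 6 minus leaf 4. With ZmPep3 they were 0.65 (aoc2) for leaf 5 minus leaf 4, 1.76 (aoc2), 1.24 (opr7) and 0.71 (opr8) for leaf 6 minus leaf 4, and 1.11 (aoc2) and 1.04 (opr7) for leaf 6 minus leaf 5. Of all genes tested, 2.21%, 7.27% and 1.1% were higher in the 2 h HAC contrasts, in the order given. The share was 4.23% at 30 min of HAC, and 5.33%, 12.2% and 1.23% with ZmPep3. The 30 min contrasts without a call among the 5 genes called 3.16% (leaf 5 minus leaf 4) and 0.36% (leaf 6 minus leaf 5) of all genes.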

How the results depend on the processing

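No result changed direction past the threshold under any alternative run. Of the 135 gene results, 130 kept their side of the threshold with DESeq2, 131 with DESeq2 size factors, 134 with a replicate block, 132 with no filter on low counts, 134 with a filter at a mean of 1 CPM and 127 with the contrast's own groups. The gene count called higher after 30 min of HAC in leaf 4 was 0 in place of 1 with no filter and with the own groups, and 0 to 1 with each library left out. After 2 h of HAC in leaf 4 it was 2 in place of 1 with the 1 CPM filter, with a replicate block (aos1 then had an adjusted p of 0.0288, edgeR), with DESeq2 and on leaving out libraries 5 and 6 of leaf 4 HAC 30 min, 0 with the own groups, and 1 to 3 with each library left out. For ZmPep3 against HAC in leaf 5 the higher count was 2 in place of 1 with the own groups and 0 to 1 with each library left out, and the lower count was 0 in place of 1 without ZmPep3 libraries 1 and 6. For ZmPep3 against HAC in leaf 6 the higher count was 1 in place of 2 with DESeq2 size factors, no filter, DESeq2 and without leaf 4 HAC 30 min libraries 5 and 6, 3 with the own groups, and 1 to 2 with each library left out, and the lower count was 1 in place of 0 with the own groups. For the 30 min HAC effect, leaf 5 minus leaf 4 had 1 higher gene in place of 0 with DESeq2 size factors, no filter, DESeq2 and without leaf 5 ZmPep3 libraries 1 and 6 (0 to 1 with each library left out), and leaf 6 minus leaf 4 had 1 in place of 3 with the own groups, without leaf 4 HAC 30 min libraries 5 and 6, and without leaf 6 control libraries 5 and 6 (1 to 3 with each library left out). For ZmPep3, leaf 5 minus leaf 4 had 0 to 1 higher genes and leaf 6 minus leaf 4 had 0 to 1 lower genes with each library left out, the last being 1 in place of 0 with DESeq2 size factors, DESeq2 and without leaf 4 HAC 30 min libraries 5 and 6. The cause was not tested.

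Under a replicate block the shares were tested by flipping signs over same-numbered libraries, whose smallest p is 0.0312, so these tests could hardly pass. The same differences then had adjusted p of 0.0536 (sign-flip test): -13.4, 10.1, -14.2, -30.5 and -16.3 points for aos1 and 8.73, 14.2, 20.4, 17.1, 10.1, 24.1, 21.3, -9.16 and -7.43 points for opr7, and 5.83 points had 0.1. Of the 5 genes, opr8 had the lowest level in any library, at 8.29 CPM in leaf 6 HAC 2 h library 2, which held 221 expected counts of it.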
